A study of Drosophila melanogaster with 4 samples.

Results

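The regions described here are the stretches of chromosome arm 3L that were called enriched for histone H4 acetylated on lysine 16 (H4K16ac) in embryos of Drosophila melanogaster. They were chosen by position alone, as every region that the deposited lists place on 3L. There were 424 such regions among 3397 in ChIP replicate 1, 197 among 2202 in ChIP replicate 2, and 906 among 6550 in the combined list of the series. The embryos were of the wild-type strain Oregon-R and 14 to 16 h old, and the labels list 2 ChIP samples and 2 input samples (chromatin sequenced without immunoprecipitation). All samples are of that strain and age, the embryos' sex is not given, and the input with the same number served as control for each ChIP list. Embryos were collected in bulk from population cages, so each sample is a mixture of all embryonic cell types. Nothing states that the replicates came from separate collections, so the spread between them may be technical.

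H4K16ac is laid down by the acetyltransferase MOF. Within the male-specific lethal complex MOF acts along the male X chromosome and takes part in dosage compensation, while within the NSL complex it acts at promoters of active genes on every chromosome. The acetyl group neutralises a charge on the histone tail that helps nucleosomes pack against each other. Chromosome 3 is an autosome with 2 long arms, and 3L is its left arm. In the coordinates used here, those of FlyBase release 5, position 1 lies at the distal, telomere-side end and the arm sequence ends after 24.5 Mb at its centromere-proximal end. The genes at the positions below and their base sequence are not analysed here.

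Every value below comes from called regions, not from reads. A region is a start, an end and a score, and the score has no stated unit, so it is used only within its own list, as such or as a percentile of all regions of that list. The depth of each sample is unknown. A stretch without a region is a stretch where none was called, which is not the absence of the mark. With 2 replicates an exact sign-flip test between arms cannot give a p below 0.5, so differences are given as values in each replicate and carry no test. Where an interval follows a share of regions, it is a 95% Wilson interval, which covers counting error only.

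Called H4K16ac regions on 3L were short and few. They covered 3.41% of the arm in replicate 1 and 1.38% in replicate 2, with a mean of 2.40% ± 1.44 (SD, n = 2). Replicate 1 held 17.3 regions per Mb and replicate 2 held 8.03. Bases inside a region of both replicates made up 1.00% of the arm, 245 kb in 147 stretches. The combined list covered 6.65%. The replicates thus differed 2.15-fold in the number of regions and 2.47-fold in covered bases on the same arm. This spread applies to every absolute density below. In covered bases the replicates differed 2.55-fold on 2L and 2.48-fold on both 2R and 3R, but 1.36-fold on X.

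Among the autosomal arms 3L lay at the sparse end, close to 2L and below 2R and 3R. In replicate 1 the covered percent was 3.41% on 3L, against 3.38% on 2L, 4.84% on 2R and 4.09% on 3R. In replicate 2 it was 1.38% on 3L, against 1.32% on 2L, 1.95% on 2R and 1.65% on 3R. The order of the 4 arms was the same in both lists. Each of these differences between arms was smaller than the gap between the replicates on 3L itself. As a ratio within a replicate they repeated closely: 3L had 0.706 times the coverage of 2R in replicate 1 and 0.707 times in replicate 2, and 0.834 and 0.839 times that of 3R. Against 2L the ratio was 1.01 in replicate 1 and 1.04 in replicate 2 but 0.987 in the combined list, so the order of 3L and 2L depended on the list.

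**Figure D1:**
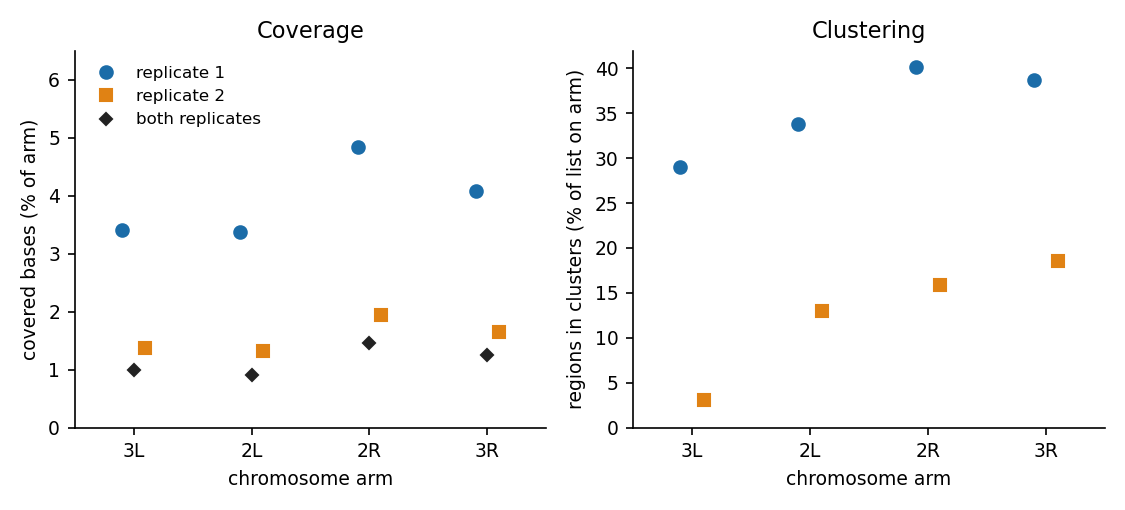
Left, covered bases as a percent of the arm; right, percent of a list's regions that lay in clusters, for 3L and the other autosomal arms, one point per ChIP replicate. 3L lay near 2L in coverage, and in replicate 2 its share in clusters was 3.05%, against 13.0% to 18.6% on 2L, 2R and 3R. For stretches in both replicates, not drawn at right, the share was 4.08% on 3L, 2.34% on 2L, 12.0% on 2R and 18.5% on 3R.

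From the distal to the proximal end, each replicate had high coverage in the first 2 Mb and from 21 to 22 Mb. Coverage was low from 12 to 15 Mb. In replicate 2, 16 to 17 Mb (2.16%) and 18 to 19 Mb (2.01%) also exceeded the first 1-Mb window (1.93%). For bases in both replicates, those windows (1.82% and 1.70%) exceeded the distal ones (1.61% and 1.69%). In that set 12 to 13 Mb, at 0.745%, was above 4 to 5 Mb (0.436%) and 10 to 11 Mb (0.390%). The distal 2 Mb, 8.15% of the arm, held 57 of 424 regions of replicate 1 (13.4%), 25 of 197 of replicate 2 (12.7%) and 112 of 906 combined regions (12.4%). Coverage of the first window was 5.76% in replicate 1 and 1.93% in replicate 2, and that of the second was 5.86% and 2.49%. The least covered run of 3 neighbouring windows, from 12 to 15 Mb and 12.2% of the arm, held 28 regions of replicate 1 (6.60%), 12 of replicate 2 (6.09%) and 79 combined regions (8.72%). Mean coverage of its 3 windows was 1.75% in replicate 1 and 0.688% in replicate 2. All 3 lists had more regions than an even spread in the distal 2 Mb and fewer in the middle stretch. Both stretches were picked from the coverage of these same lists, so these counts are no separate evidence.

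Among the 24 full windows, the replicates differed in the densest and the sparsest. The shorter window at the proximal end, left out of this order, was covered over 1.60% in replicate 1 and 0.349% in replicate 2. In replicate 1 the densest was 1 to 2 Mb at 5.86% and the sparsest 14 to 15 Mb at 1.14%, a ratio of 5.15. In replicate 2 the densest was 21 to 22 Mb at 2.63% and the sparsest 13 to 14 Mb at 0.549%, a ratio of 4.78. For bases in both replicates these were again 21 to 22 Mb, at 2.03%, and 13 to 14 Mb, at 0.144%. The combined list had its densest window at the very distal end, 0 to 1 Mb, at 10.9%, and its sparsest at 14 to 15 Mb, at 2.47%. Of the 6 densest windows of each replicate 4 were shared, and of the 6 sparsest also 4. Across the 24 full windows Spearman's rho between the replicates was 0.759 and Pearson's r was 0.755. Neighbouring windows are not independent, and differences in how much sequence can be mapped are common to both lists.

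**Figure D2:**
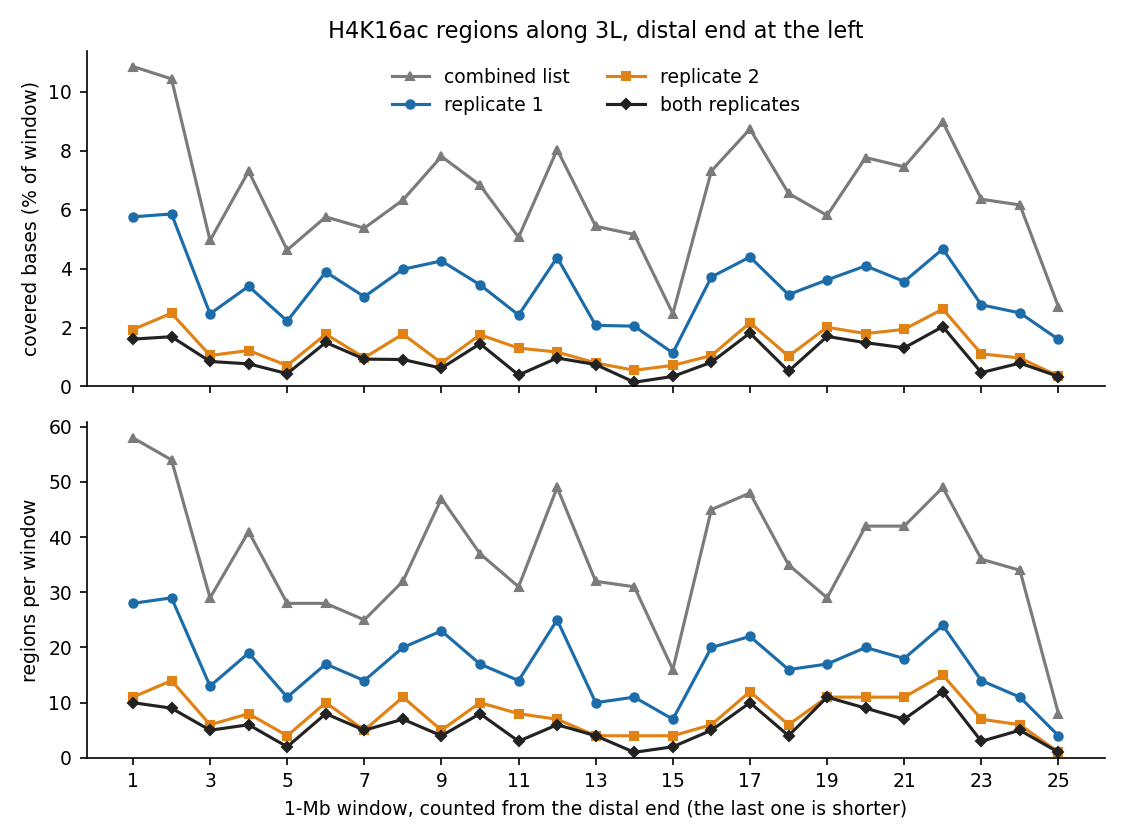
Covered bases (top, percent of window) and number of regions (bottom) in 1-Mb windows of 3L, counted from the distal end at the left, for each replicate, for stretches in both replicates and for the combined list. Coverage of each replicate is high in windows 1 and 2 and low in windows 13 to 15. In replicate 2 windows 17 and 19 lie above window 1. Replicate 1 lies above replicate 2 in every window.

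Divided into 5 equal segments of 4.91 Mb, the arm showed the same dip. Replicate 1 had 100, 89, 69, 85 and 81 regions from the distal to the proximal segment, and replicate 2 had 43, 40, 28, 41 and 45. The distal segment was the fullest in replicate 1 and the proximal one in replicate 2, whereas the middle segment was the emptiest in both. The share of regions found in the other replicate was also lowest in the middle, where each list had its fewest regions. Of the replicate 1 regions there, 17 of 69 (24.6%) were found in replicate 2, against 31 of 100 in the distal segment (31.0%) up to 33 of 81 in the proximal one (40.7%). For replicate 2 regions the middle share was 17 of 28 (60.7%), against 73.3% to 78.0% elsewhere. No interval was computed for these shares by segment, so their differences cannot be told from counting error. Median scores by segment ran between 0.536 and 0.602 in replicate 1, at percentiles 24.9 and 40.4 of that list. In replicate 2 they ran between 0.676 and 0.725, at percentiles 17.9 and 26.5. The segment from 14.7 to 19.6 Mb had the lowest median in each list. By 1-Mb window the replicate 1 median ran from 0.501 at 15 to 16 Mb to 0.678 at 5 to 6 Mb.

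The ends of the arm differed. The first region began at 156148 in replicate 1, at 175319 in replicate 2 and at 78046 in the combined list, so that the distal 156 kb held no region of either replicate. At the proximal end a region lay near the very last base. It was called at 3L:24529700-24531914 in replicate 1 and at 3L:24529639-24531535 in replicate 2, which left 11.6 kb and 12.0 kb to the end of the arm sequence. Its score was 0.698 in replicate 1 and 0.599 in replicate 2. It was the sole stretch of both replicates in the final, shorter window, where replicate 1 had 4 regions and replicate 2 had 1.

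Regions were narrow in both lists, and those of replicate 1 were somewhat wider. The median was 1891 bp in replicate 1 (quartiles 1515 and 2142) and 1679 bp in replicate 2 (quartiles 1439 and 1920), a mean of 1785 bp ± 149.9 (SD, n = 2). At most a region reached 6836 bp in replicate 1, against 3186 bp as the maximum of replicate 2. No region was narrower than 1301 bp in replicate 1 or 1305 bp in replicate 2, so the medians describe widths above that lower edge. The other autosomal arms had medians from 1859 to 1895 bp in replicate 1 and from 1678 to 1751 bp in replicate 2, with 3L inside both ranges.

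Scores on 3L sat in the lower part of each list, which also holds the strongly scored regions of X. The median was 0.578 in replicate 1, at percentile 34.6 of that list, and 0.698 in replicate 2, at percentile 21.6. On 2L, 2R and 3R the medians ran from 0.566 to 0.578 in replicate 1 and from 0.698 to 0.716 in replicate 2. A few 3L regions ranked near the top of the whole list, with a maximum of 1.45 in replicate 1 and 1.52 in replicate 2, both at the same place. In replicate 1 the maxima were 1.24 on 2L, 1.92 on 2R, 1.89 on 3R and 1.47 on X. In replicate 2 they were 1.02, 1.91, 2.04 and 1.64. Score and width were related within each list: across 424 regions of replicate 1 Spearman's rho was 0.587, and across 197 regions of replicate 2 it was 0.271.

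Of the replicate 1 regions, 144 of 424 touched a region of replicate 2 (34.0%, interval 29.6 to 38.6), and of the replicate 2 regions 144 of 197 touched replicate 1 (73.1%, interval 66.5 to 78.8). In bases, 29.2% of the replicate 1 coverage lay inside replicate 2, and 72.2% of the replicate 2 coverage lay inside replicate 1. On 2L, 2R and 3R the shares of regions were 31.2% to 35.6% for replicate 1 and 71.2% to 79.8% for replicate 2. The 3L shares lay between those of the other arms.

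Wide regions were found again more often than narrow ones in both lists. Each list was split by width into 3 groups of near-equal size. In replicate 1 the share found in replicate 2 was 11.3% in the narrow group (1301 to 1614 bp), 32.6% in the middle group and 57.7% in the wide group (2054 to 6836 bp). In replicate 2 the shares were 48.5% (1305 to 1495 bp), 76.9% and 93.9% (1850 to 3186 bp). The intervals of the narrow and wide groups did not overlap in either list. A wider region also offers more bases for an overlap, and its part in these shares was not tested.

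The score divided the lists differently. In replicate 1 the share found again was 21.3% in the lowest score group, 28.4% in the middle and 52.1% in the highest. In replicate 2 it was 75.8%, 72.3% and 71.2%, differences that lay within the counting intervals. Regions of replicate 2 found in replicate 1 had a median score of 0.688, against 0.704 for those not found, while in replicate 1 the medians were 0.638 and 0.549. Widths separated both lists: the medians of found and not found regions were 2084 and 1708 bp in replicate 1, and 1787 and 1439 bp in replicate 2. Among the narrow group of replicate 2, the higher scored part was found again in 10 of 33 regions (30.3%, interval 17.4 to 47.3) and the lower scored part in 22 of 33 (66.7%, interval 49.6 to 80.2). In the wide group of replicate 2 both parts were found again in 31 of 33 (93.9%). In replicate 1 the narrow group had 7 of 71 (9.86%) in the higher scored part and 9 of 70 (12.9%) in the lower one. Its wide group had 52 of 71 (73.2%, interval 61.9 to 82.1) and 30 of 71 (42.3%, interval 31.5 to 53.8).

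**Figure D3:**
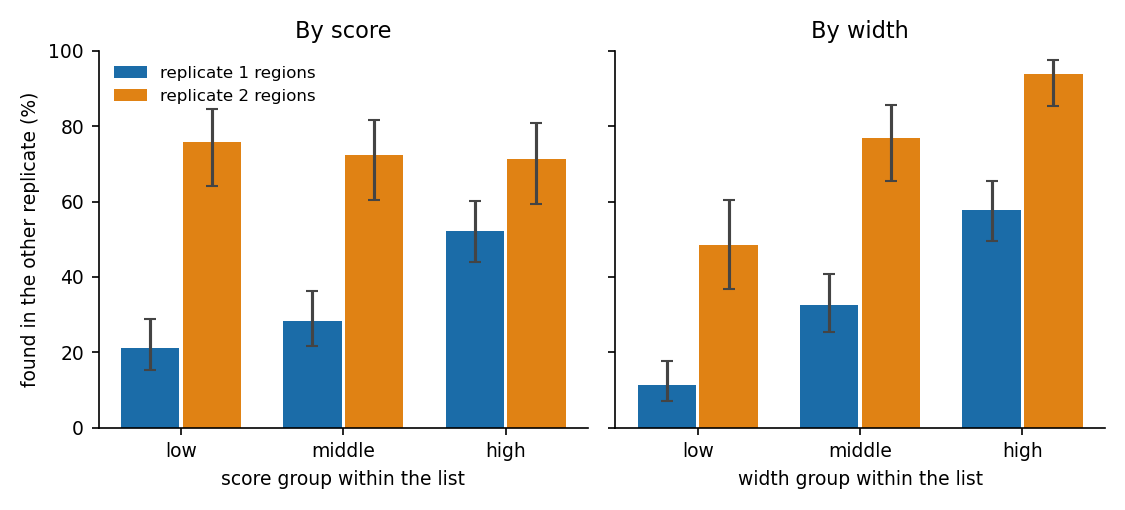
Percent of 3L regions found in the other replicate, for 3 groups of score (left) and of width (right) within each list; bars are shares and error bars 95% Wilson intervals for counting error. By width the share goes from 11.3% to 57.7% in replicate 1 and from 48.5% to 93.9% in replicate 2, and by score the replicate 2 bars stay between 71.2% and 75.8%.

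Overlapping regions matched closely in position. They formed 147 pairs, of which 136 were one to one. Among these the starts differed by a median of 171 bp and the ends by 199 bp. The replicate 1 region was the wider one in 118 of 136 pairs, with a median of 2080 bp against 1774 bp, and the replicate 2 region lay fully inside it in 77. The shared stretches had a median of 1659 bp, and 6 were shorter than 1 kb, down to 29 bp at 3L:17795932-17795960, where the regions overlapped at their edges alone. Scores of pairs were related weakly: across 147 pairs Spearman's rho was 0.302 and Pearson's r 0.539, and without the 5 pairs named next they were 0.227 and 0.296. Some pairs share a region, and regions are not replicates.

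**Figure D4:**
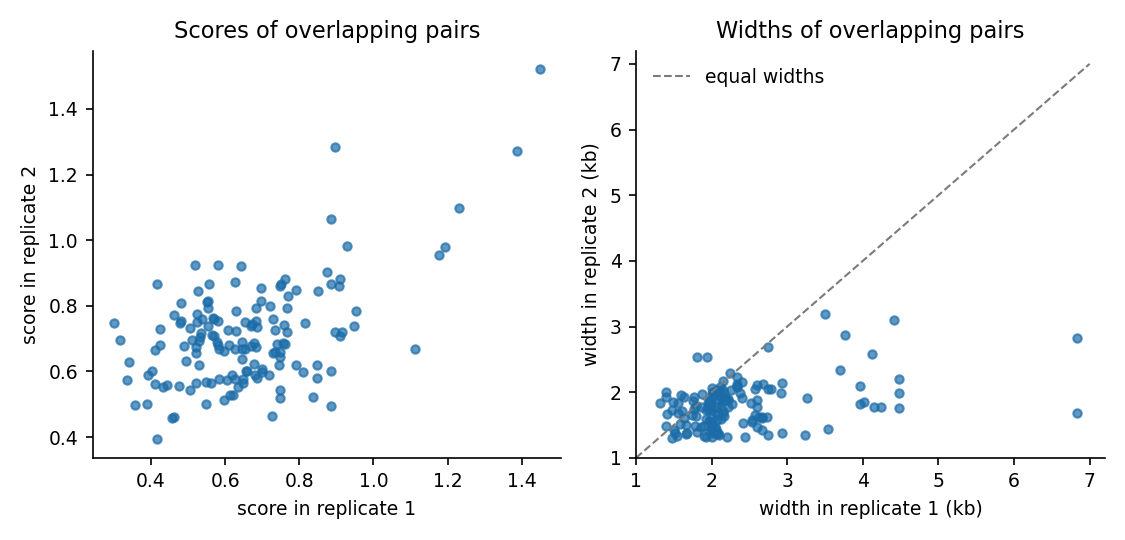
Scores (left) and widths in kb (right) of the 147 overlapping pairs of 3L regions, replicate 1 on the horizontal and replicate 2 on the vertical axis; the dashed line marks equal widths. A few pairs stand apart at high scores in both lists, and most width points lie below the line, since replicate 1 was wider in 118 of 136 one-to-one pairs.

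Of the 5 pairs with the highest mean score percentiles, the highest was a region at 3L:4107754-4110091 in replicate 1 and 3L:4107808-4110039 in replicate 2, with scores of 1.45 and 1.52. It was the top region of 3L in both lists and lay at percentile 99.7 and 99.6 of all regions, X included. The region is 2338 bp wide in replicate 1, and its combined counterpart scored 1.28.

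The second, at 3L:16082580-16084982 in replicate 1, scored 1.39 there and 1.27 in replicate 2. The third, at 3L:21232134-21234463, scored 1.23 and 1.10. The fourth, at 3L:698177-701873, ranked differently in the lists: its score was 0.897 in replicate 1, at percentile 84.4, and 1.28 in replicate 2, at percentile 96.4. The fifth, at 3L:17959376-17961704, scored 1.19 in replicate 1 and 0.980 in replicate 2. All 5 were wider than the upper quartile of 3L in their list, with 2329 to 3697 bp in replicate 1 and 2078 to 2336 bp in replicate 2. The mean percentile of the fifth pair was 83.5, and the next pairs followed at 82.2 and 81.8.

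The widest stretches found in both replicates were others. They measured 3186 bp at 3L:20761914-20765099, 3093 bp at 3L:1773973-1777065, 2867 bp at 3L:6181610-6184476, 2824 bp at 3L:5131301-5134124 and 2677 bp at 3L:20801232-20803908. None of them was among the highest scored pairs. The widest scored 0.653 in replicate 1, at percentile 52.4, and 0.668 in replicate 2, at percentile 16.5. The third scored 0.886 and 1.06, at percentiles 83.6 and 80.8, and was the highest scored of these 5. At the fourth the widest 3L region of replicate 1, 6836 bp, overlapped a replicate 2 region of 2824 bp.

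Some regions scored high for 3L in a single replicate. The highest scored of replicate 1 without a counterpart lay at 3L:17568379-17570534, scored 0.937 at percentile 86.5, and was 104 kb away from the nearest region of replicate 2. The next, 3L:7320839-7323607, scored 0.921 and lay 2.98 kb from one. The other 3 by rule scored from 0.774 to 0.801, at percentiles 74.8 to 77.6 of the list. All 5 overlapped a combined region.

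In replicate 2 the highest without a counterpart was 3L:5140287-5141658, which scored 1.03 at percentile 77.0 and lay 0.471 kb from a replicate 1 region. The next, 3L:23856975-23858383, scored 0.989 and was 125 kb from one. The remaining 3 scored from 0.852 to 0.890, at percentiles 49.7 to 56.5, which is near the middle of the whole list. In contrast to those of replicate 1, 3 of the 5 overlapped no combined region. All 5 were narrow, from 1333 to 1409 bp, in a list whose 3L median was 1679 bp. Distances of all unmatched regions to the other list had a median of 25.7 kb for the 280 of replicate 1 and 15.5 kb for the 53 of replicate 2, and 11 and 5 of them lay within 1 kb.

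Clusters were defined on the 474 stretches covered by either replicate. Stretches up to 10 kb apart were joined, and at least 3 joined stretches made a cluster. There were 40 clusters, which held 147 of the 474 stretches (31.0%) and spanned 3.12% of the arm. Another 195 stretches stood alone and 66 groups were pairs. Most clusters were small: 24 had 3 stretches, 10 had 4 and 6 had 5 or more, and the median span was 17.0 kb, with a longest of 39.7 kb. From distal to proximal, the 5 segments of the arm held 14, 9, 4, 7 and 6 clusters.

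Clusters rested largely on replicate 1. Of the 40, 30 contained a stretch of both replicates and 5 contained no region of replicate 2. In the replicate 2 list alone there were 2 clusters, at 3L:202940-225417 and 3L:5128264-5141658, and in that of replicate 1 there were 35. Of replicate 1 regions with a neighbour in their own list within 10 kb, 89 of 239 (37.2%) were found in replicate 2, against 32 of 121 (26.4%) with the nearest at 10 to 50 kb and 23 of 64 (35.9%) with the nearest beyond 50 kb. Of replicate 2 regions 49 of 62 (79.0%) were found in replicate 1 with a neighbour within 10 kb, against 42 of 56 at 10 to 50 kb and 53 of 79 (67.1%) beyond 50 kb.

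Replicate 2 had fewer clusters on 3L than on any other autosomal arm. At 10 kb, 6 of its 197 regions on 3L lay in clusters (3.05%), against 23 of 177 on 2L (13.0%), 37 of 233 on 2R (15.9%) and 47 of 253 on 3R (18.6%). In the same list 3L had 8.03 regions per Mb and 2L 7.69. With a gap of 20 kb the shares were 16.2% on 3L, against 25.4%, 20.6% and 27.7% on 2L, 2R and 3R, and with 5 kb they were 0% against 6.78%, 3.00% and 7.91%. In replicate 1 the difference was smaller, with 29.0% on 3L against 33.8% on 2L, 40.1% on 2R and 38.7% on 3R. The share of regions with a neighbour within 10 kb ran in the same direction, at 31.5% on 3L (interval 25.4 to 38.3) against 38.2% to 45.5% in replicate 2, and at 56.4% on 3L (interval 51.6 to 61.0) against 59.6% to 65.2% in replicate 1. For stretches in both replicates 3L was not the lowest: 4.08% lay in clusters, against 2.34% on 2L, 12.0% on 2R and 18.5% on 3R. The comparison of clustering between arms was chosen after its values were seen and has no test.

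The cluster with most stretches, 3L:1293054-1331113, had 7, and no base of it was called in both replicates. Replicate 1 had 5 regions there, scored from 0.504 to 0.607, and replicate 2 had 2, at 3L:1298275-1300417 and 3L:1302084-1303628, scored 0.818 and 0.745. The replicate 2 regions filled a gap between the first and second regions of replicate 1. The combined list had 7 regions in the cluster.

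The second cluster, 3L:7316062-7355766, was covered over 49.1% of its 39.7 kb. Replicate 1 had 7 regions there, scored from 0.506 to 0.921, and replicate 2 had 4, scored from 0.519 to 0.719, with 6485 bp in both. The combined list joined its proximal end into a single region of 7355 bp, the widest of the arm. The third cluster, 3L:684356-712101, had 6 regions of replicate 1 and 3 of replicate 2 and contained the fourth of the highest scored pairs. Its other regions scored from 0.397 to 0.617 in replicate 1, and 0.924 and 0.589 in replicate 2.

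The fourth cluster, 3L:16572071-16606281, had 6 regions of replicate 1 and 4 of replicate 2, and each replicate 2 region overlapped a region of replicate 1, over 7343 bp in all. The fifth, 3L:9687160-9720816, had 4 and 2, with 1 shared stretch of 1915 bp. The 5 clusters thus ran from no overlap between replicates to an overlap at every replicate 2 region.

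Long stretches without a region of either replicate made up more than the rest of the arm. In the combined list, 46 stretches of at least 100 kb without a region made up 28.2% of it. There were 75 stretches of at least 100 kb without a region of either replicate, 13.7 Mb or 56.0% of 3L, with a median of 163 kb. By the same rule the shares were 62.3% of 2L, 46.6% of 2R and 56.0% of 3R. Along 3L they took up 50.4%, 52.5%, 65.7%, 59.0% and 52.3% of the 5 segments from distal to proximal. In contrast, the median distance between neighbouring stretches of either replicate was 21.4 kb.

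The 5 longest lay in the middle and toward the proximal end, except for one. They were 3L:18179737-18613530 (434 kb), 3L:13506459-13921284 (415 kb), 3L:14672345-15062728 (390.4 kb), 3L:3544470-3897715 (353 kb) and 3L:23333713-23678603 (345 kb). The second lies within the sparse stretch from 12 to 15 Mb, and the next crosses its proximal edge. The combined list was not empty there. It had 2 regions wholly inside the longest, over 0.684% of it, and 8 inside the fifth, over 2.54%, one of which scored 2.71.

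Empty stretches of a replicate were partly filled by the other. The 75 stretches of at least 100 kb without a region of replicate 1 made up 59.8% of the arm and held 24 of 197 replicate 2 regions (12.2%, interval 8.33 to 17.5). The 79 such stretches of replicate 2 made up 81.0% and held 202 of 424 replicate 1 regions (47.6%, interval 42.9 to 52.4). The longest without replicate 2, 3L:14672343-15555831 at 883 kb, held 9 regions of replicate 1. The longest without replicate 1, 3L:4534123-5128267 at 594 kb, held 1 of replicate 2. Regions of replicate 2 inside the gaps of replicate 1 scored about as high as those outside, with medians of 0.716 and 0.695, whereas regions of replicate 1 inside the gaps of replicate 2 had a median of 0.551 against 0.599.

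The combined list had more regions on 3L than both replicates together, and more of them lacked a replicate counterpart than had one. Of its 906 regions, 141 touched both replicates (15.6%, interval 13.3 to 18.1), 260 touched replicate 1 alone (28.7%), 39 touched replicate 2 alone (4.30%) and 466 touched neither (51.4%, interval 48.2 to 54.7). The share without support was 51.7% on 2L, 50.5% on 2R and 49.4% on 3R. Set against a single replicate list, the share without support was 55.7% for replicate 1 and 80.1% for replicate 2. The labels and headers do not say how the list was made from the replicates.

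Support was more frequent among wide combined regions and in the highest of 4 score groups. Of 287 combined regions narrower than every replicate region on 3L, 26 touched a replicate (9.06%, interval 6.26 to 12.9). The shares were 48.5% of 361 regions from there to 2 kb, 90.7% of 194 regions over 2 and up to 3 kb, and 98.4% of 64 wider ones. Median widths were 2429 bp for regions in both replicates, 1935 bp for replicate 1 alone, 1829 bp for replicate 2 alone and 1228 bp for neither. Split by score into 4 groups of near-equal size, 91 of 227 regions of the highest group touched both replicates, against 21 of 226, 19 of 226 and 10 of 227 in the lower ones. The shares touching neither were 37.0% in the highest group and 55.8%, 57.5% and 55.5% in the lower ones. Regions of the highest group were also wider, with a median of 2079 bp, against 1398, 1607 and 1611 bp. The part of width in the score groups was not tested. The median score was 0.555 for regions in both and 0.444 for those in neither.

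**Figure D5:**
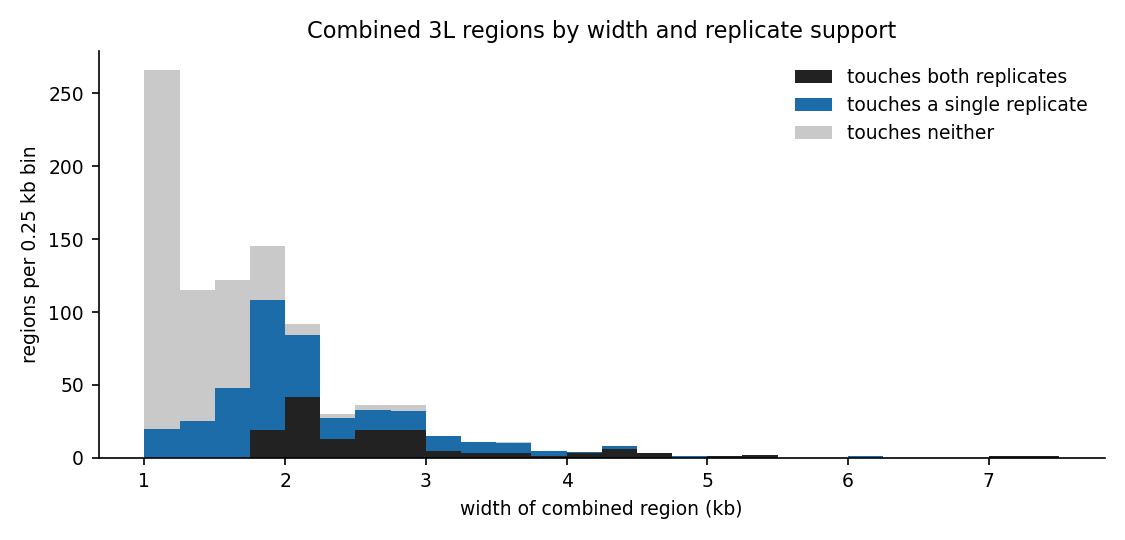
Widths of the 906 combined 3L regions in bins of 0.25 kb, stacked by whether a region touches both replicates, a single one or neither. Regions that touch neither fill most of the narrow bins, and beyond 3 kb 63 of 64 regions touch a replicate.

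The highest combined scores were an exception. The first 3 on 3L touched no replicate: 3L:19764390-19765392 scored 3.51, 3L:23384870-23385874 scored 2.71 and 3L:23817844-23819834 scored 1.71. Their widths were 1003, 1005 and 1991 bp. The maximum of 3.51 was also the highest combined score on 2L and on 2R, so it is not particular to 3L. On 3R the maximum was 2.58. The next 2, 3L:16082616-16085002 with 1.31 and 3L:4107760-4110958 with 1.28, were the counterparts of the 2 highest scored pairs. The order of the combined list at its very top was therefore not the order of either replicate.

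The widest combined regions without support had scores from percentile 15.2 to percentile 54.1 of the combined 3L regions. They were 3L:17962756-17966424 (3669 bp, score 0.366), 3L:23271008-23273850 (2843 bp, 0.466), 3L:17035642-17038440 (2799 bp, 0.427), 3L:12498724-12501504 (2781 bp, 0.398) and 3L:21272296-21275060 (2765 bp, 0.399). The first lay 1.05 kb from the nearest replicate region, that of the last of the 5 highest scored pairs. The others lay 9.63 to 26.9 kb from one.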

How the data were processed

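Histone H4K16ac was mapped by chromatin immunoprecipitation and sequencing in 2 ChIP samples, with 2 inputs as controls. The authors deposited a list of enriched regions for each ChIP replicate and a combined list, in FlyBase release 5 per the file headers, each region with a score of unstated unit. Per the submitters' processing notes, Bowtie 0.12.7 was among the tools. Labels and headers name neither the region caller nor its threshold nor the read depth, and the inputs have no values here.

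Regions on 3L were taken by chromosome name, with coordinates counted from 1. Covered bases were counted once, an overlap of 1 base counted as shared, and windows were 1 Mb from the distal end. Calculations used Python 3.11.15, numpy 2.4.6, pandas 2.3.3 and scipy 1.17.1, and the interval functions were tested on simulated data. The 3L regions and the definitions were chosen with earlier results of these data known. Named by rule were the 5 widest shared stretches, the 5 pairs of highest mean score percentile, the 5 highest unmatched regions per replicate, the 5 highest combined regions, the 5 widest combined regions without support, the 5 largest clusters, the 5 longest empty stretches, and the densest and sparsest windows. The end regions, the shortest shared stretch, the 2 clusters of replicate 2 and the longest gaps per replicate were named after their values were seen. Gene annotation was not used, since the gene table at hand is in another release.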

Additional observations from a re-analysis of the deposited data

How the results depend on the processing

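Of 43 alternatives over 12 results, 19 moved a value by less than the spread between replicates, the counting interval or 1.5 times the count, and 24 moved it further. None has a test. The covered percent, 1.00% for bases in both replicates, was 1.38% without replicate 1 and 3.41% without replicate 2, 3.80% for bases of at least 1 replicate and 6.65% for the combined list; with regions at or above their list's 3L median score it was 0.356%. That score filter left 45 of 147 shared stretches, found 20.8% of replicate 1 and 45.5% of replicate 2 regions in the other list, left 13 of 40 clusters, and gave 55.2% of combined regions without support. With an overlap of 50% of both regions, 65.0% of replicate 2 regions were found. The densest window over the whole arm, 2.04, was 1.90 without replicate 1, 1.72 without replicate 2, 2.89 in 500 kb windows, 1.68 in 2-Mb windows and 1.63 in the combined list. Clusters numbered 2 without replicate 1, 35 without replicate 2, 18 with gaps up to 5 kb and 107 in the combined list. Empty stretches numbered 151 from 50 kb, 23 from 200 kb and 46 in the combined list. Combined regions without support were 80.1% without replicate 1 and 55.7% without replicate 2. For replicate 2 alone, gaps of 5 kb and 20 kb, added after the data were seen, gave 0 and 9 clusters. Region sets of another size shift counts and coverage by construction. Alternatives that leave out a replicate could not be had for shared stretches and for shares found in the other replicate. No paired analysis was possible because no file gives values for the inputs that share the ChIP samples' numbers. Read depth is unknown, so what depth hides in either list is not known.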

Other observations

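A few replicate regions on 3L were left out of the combined list. They were 16 of 424 in replicate 1 and 14 of 197 in replicate 2, and none of the 30 was found in the other replicate. Their median score was 0.523 in replicate 1, against 0.581 for the regions kept, and 0.711 in replicate 2, against 0.697. Of the 147 stretches of both replicates, 146 touched the combined list, and the exception is the 29-bp touch at 3L:17795932-17795960.

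Wholly inside the 75 long stretches without a replicate region lay 196 combined regions, over 1.87% of their bases, and 9 of the stretches had none. Their median score was 0.466, against 0.438 for combined regions without support elsewhere.

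The combined coordinates on 3L had a grain that the replicate lists lack. All 906 starts and all 906 ends were even numbers, against 209 of 424 starts in replicate 1 and 107 of 197 in replicate 2. The narrowest width, 1001 bp, occurred 26 times, and the 906 regions had 830 distinct scores, of which 0.484 was the most frequent, with 9 regions.

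Of the 9 highest scored combined regions of 3L, 3 lay in the window from 23 to 24 Mb without a replicate counterpart, at 3L:23384870-23385874, 3L:23570612-23571620 and 3L:23817844-23819834, chosen after their values were seen.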
